A study of Mus musculus with 13 samples.

Results

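The genes described here encode the aminoacyl-tRNA synthetases of the mouse. They were chosen by symbol: a letter followed by ars, with or without a closing 1 or 2, together with Farsa, Farsb, Eprs and Tarsl2. Of 37991 genes in the count table, 38 met this rule, comprising 20 genes for cytosolic enzymes, 17 genes whose symbol ends in 2 and which encode enzymes of the mitochondrion, and Tarsl2, a relative of the threonine enzyme that was kept apart. Naive B cells came from the spleens of wild-type C57BL/6 mice aged 6 to 8 weeks and were cultured for 24 h with 250 nM CpG ODN 1668, a ligand of the receptor TLR9, although the protocol in the labels gives the dose by weight. Single cells were trapped on a chip, photographed and sequenced: 5 large cells, from wells C1, C3, E1, E3 and G2, and 5 small cells, from wells A2, C12, C7, F7 and H1. A library called Positive held diluted bulk cDNA at 24 h, a further bulk library was labelled 0 h and unstimulated, and a Negative library held spike-in RNA without a cell. The labels name no mouse or culture for a cell. Each size group therefore counts as 1 sample, and differences between sizes have neither a replicate check nor a p-value.

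Each synthetase joins an amino acid to its tRNA, and the charged tRNA then carries that amino acid to the ribosome. The cytosol and the mitochondrion translate separately, and most amino acids have a separate gene for each compartment. Kars and Gars are known to serve both compartments from a single gene, and mitochondrial glutaminyl-tRNA is made by a different route, so that no member ending in 2 exists for lysine, glycine or glutamine. Resting B cells make little protein, and stimulation is followed by growth of the cell and of its translation machinery.

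Several cytosolic synthetase genes are known targets of ATF4, a transcription factor that responds to lack of amino acids and binds, with partners of the C/EBP family, to a composite element. The element was searched for as TGATGNAA on both strands, overlapping matches included, in promoters from 250 bases before to 50 bases after the start site (RefSeq, GRCm38.p6, a build other than that of the counts). Promoters were found for 28 of 38 members, by symbol. Of 13 cytosolic promoters, 5 held the element (38.5%), against 0 of 14 mitochondrial promoters and 4.51% of all 27025 promoters in the table. The promoters of Cars, Hars, Lars, Nars, Rars, Vars, Wars, Hars2 and Pars2 were not analysed here. The match nearest the start site is printed for each gene in its own sense, 5′ to 3′, because the element is a sequence feature that some cytosolic members have in common. Capitals mark the element or its reverse complement.
Aars, chr8:111033840-111033869 (+): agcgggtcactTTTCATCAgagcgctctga
Gars, chr6:55037960-55037989 (+): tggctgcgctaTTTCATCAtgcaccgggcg
Iars, chr13:49682126-49682155 (+): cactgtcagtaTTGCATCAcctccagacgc
Tars, chr15:11399655-11399684 (-): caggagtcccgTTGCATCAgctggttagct
Yars, chr4:129189895-129189924 (+): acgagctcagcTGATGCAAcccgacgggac

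The genes with a match encode the enzymes for alanine, glycine, isoleucine, threonine and tyrosine. In 4 of these 5 windows the element reads as its reverse complement, and that of Yars reads in the forward sense. A match is a description of the letters and does not show that a factor was bound in these cells.

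Depth was between 4043241 and 6311782 counts in the large cells and between 3311235 and 6191247 in the small cells. Positive had 1740862 counts, the library labelled 0 h had 825441, and Negative had 190, none of them in a synthetase gene. All 8 B cell markers had reads among the 9 cells other than C3, and together they took 0.658 to 2.61% of the counts of these large cells and 0.360 to 2.87% of those of small cells. No read of the 4 NK, 4 erythroid or 3 platelet markers was seen in the 9 cells. Of the T cell markers only 1 of 7 had reads (at most 0.00411% of counts in a large and 0.0107% in a small cell), and 4 of 7 myeloid markers, Lyz2 among them, had none (list at most 0.00302% in a large and 0.0258% in a small cell). The plasma cell list reached 0.0733% in a large cell, G2 (4099 counts), and 0.180% in a small cell, C12 (10375 counts). The small cell A2 had 7117 counts of this list, with reads of all 4 genes, and Jchain (1293 counts) was read in A2 alone. Among the B cell markers C3 had 2499 counts of Cd74, 731 of Cd79b and 1 of Ms4a1. It had no Cd79a read, against at least 3570 counts in each of the other cells, and the study's methods left it out of the comparison of sizes. Its values are given here but not included in that comparison.

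Transcripts of cytosolic synthetases were abundant in most of the cells. Among the large cells, C1 had 0.742% of its gene counts in these genes, E1 0.623%, E3 0.472%, C3 0.213% and G2 0.169%. In the small cells they made up 0.666% in A2, 0.528% in C12, 0.109% in C7, 0.538% in F7 and 0.393% in H1. Exact 95% binomial intervals, which cover counting error only since PCR copies are not independent molecules, reached from 0.734 to 0.751% in C1 and from 0.105 to 0.113% in C7, so the spread between cells was far wider than counting error. The sizes overlapped: G2 lay below 4 of the 5 small cells and A2 lay above E1, E3 and G2.

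Mitochondrial synthetases took a smaller share in each of the cells. Their share in the large cells was 0.0881% in C1, 0.0800% in E1, 0.0510% in E3, 0.0463% in G2 and 0.0151% in C3. In the small cells it was 0.0562% in A2, 0.0471% in C12, 0.0345% in C7, 0.0484% in F7 and 0.0189% in H1. C1 and E1 lay above every small cell, whereas E3 and G2 did not. Lars2, whose reads are of uncertain origin as described below, is included in this share. Without Lars2 the share was 0.0795, 0.0723, 0.0425, 0.0169 and 0% in C1, E1, E3, G2 and C3. It was 0.0436, 0.0383, 0.0177, 0.0399 and 0.00670% in A2, C12, C7, F7 and H1. With Lars2 included, the cytosolic enzymes had 3.16 (C7) to 20.8 (H1) times the counts of the mitochondrial enzymes within a cell.

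**Figure D1:**
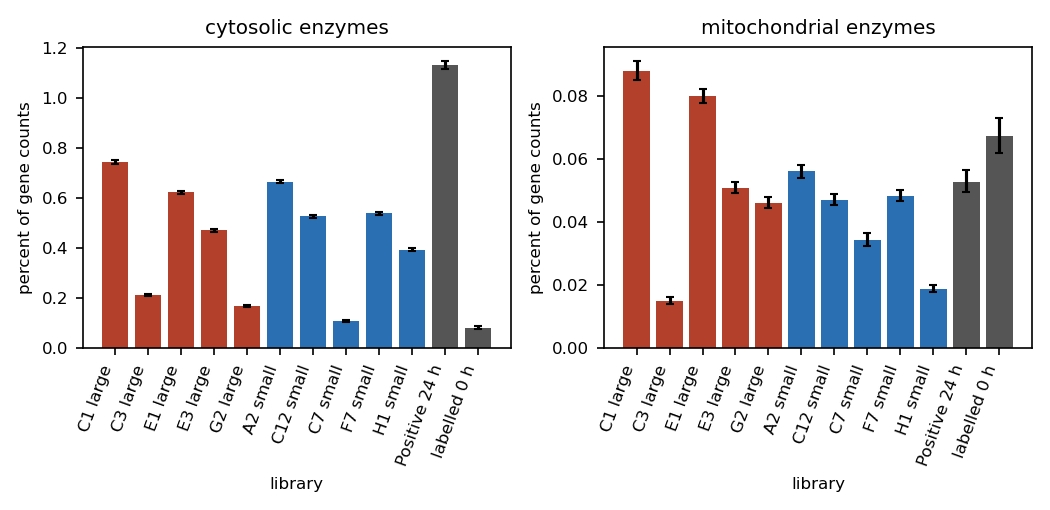
Share of all gene counts taken by the 20 cytosolic genes (left) and the 17 mitochondrial genes (right), in percent, by library, with exact 95% binomial intervals for counting error. Large cells are red, small cells blue, bulk libraries grey. The cytosolic share is highest in Positive (1.13%), and among the cells it runs from 0.109% in C7 to 0.742% in C1.

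A cytosolic enzyme was also the more abundant when genes for the same amino acid were set side by side per length. Mean levels over the 9 cells were taken as CPM, which scales counts to the library total, per kilobase of annotated exons (CPM per kb). The exons of all annotated transcripts of a gene were merged, so this length can exceed that of any single transcript. The 17 mitochondrial genes gave 18 pairs, because Fars2 has Farsa and Farsb as partners and Eprs, which carries both the glutamate and the proline enzyme, is the partner of Ears2 and Pars2. In all 18 pairs the cytosolic gene had the higher level, by a median of 7.91 times. The gap was narrowest for threonine, with 39.2 CPM per kb for Tars and 16.2 for Tars2 (2.41 times), and for leucine, with 33.9 for Lars and 11.3 for Lars2 (2.99 times). It was wide for asparagine, with 112.9 CPM per kb for Nars and 0.473 for Nars2.

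Kars, the lysine enzyme, had the highest mean level of all members, 164.3 CPM per kb. Its counts in large cells were 5027, 9915 and 1737 in C1, E1 and E3, with no read in C3 and G2. In small cells they were 4193 in A2, 5104 in C12, 8 in C7, 8057 in F7 and 2754 in H1. Kars was thus read at high counts in most cells and at few or none in C3, G2 and C7. A count of 0 allows a share of up to 7.27e-05% in C3 and 5.37e-05% in G2. Nars, which charges asparagine tRNA, came next at 112.9 CPM per kb. It had 4338, 100, 2979, 1162 and 0 counts in the large cells C1, C3, E1, E3 and G2, and 3766, 8683, 7, 104 and 2415 in the small cells A2, C12, C7, F7 and H1.

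Gars, the glycine enzyme, followed with 73.8 CPM per kb. Its counts in the large cells were 140, 0, 313, 2289 and 0 in the order C1, C3, E1, E3 and G2, against 4913, 1271, 0, 2694 and 38 in the small cells A2, C12, C7, F7 and H1. Hars, the histidine enzyme, had 64.4 CPM per kb and was 1 of 2 members, with Lars2, with a read in all 10 cells. It had 2313, 88, 261, 1487 and 100 counts in C1, C3, E1, E3 and G2, and 69, 163, 3, 1875 and 1067 in A2, C12, C7, F7 and H1. Even these abundant members differed widely between cells of the same size. Exons of Hars and Hars2 lie on opposite strands and share 195 bases, and the counting is not stated to use strand.

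Eprs, whose product charges both glutamate and proline tRNA, was read in 9 of the 10 cells, as were Nars and Tars. It had 4585, 981, 2809, 3067 and 176 counts in the large cells C1, C3, E1, E3 and G2, and 5120, 6191, 0, 4730 and 1330 in the small cells A2, C12, C7, F7 and H1. Its merged annotated exons cover 18102 bases, and per length it stood at 31.8 CPM per kb. Without the length its mean was 576.2 CPM, against 733.3 for Kars and 491.8 for Nars. Tars, the threonine enzyme, had 1299, 7642, 594, 6004 and 29 counts in C1, C3, E1, E3 and G2, and 637, 53, 0, 348 and 2583 in A2, C12, C7, F7 and H1. C3 was its highest cell, and there Tars alone made up 81.0% of all synthetase counts.

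The phenylalanine enzyme of the cytosol is built from 2 different subunits, so that both Farsa and Farsb are needed. Farsa, the alpha subunit, had 0, 0, 1495, 3268 and 47 counts in C1, C3, E1, E3 and G2, and 40, 1, 16, 1445 and 4701 in A2, C12, C7, F7 and H1. Farsb, the beta subunit, had 531, 0, 504, 2657 and 0 counts in the same large cells and 1419, 69, 0, 2325 and 6 in the same small cells. The subunits were both high in E1, E3 and F7, but C1 and A2 held mostly Farsb and H1 held mostly Farsa.

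Aars, for alanine, had 1858, 0, 2305, 148 and 1283 counts in C1, C3, E1, E3 and G2, and 1377, 2248, 0, 56 and 73 in A2, C12, C7, F7 and H1. Yars, for tyrosine, had 708, 2, 2697, 172 and 327 counts in these large cells and 1568, 0, 0, 0 and 76 in these small cells. Rars, for arginine, had 351, 0, 4443, 33 and 0 counts in the large cells and 1343, 2840, 0, 94 and 776 in the small cells. By count these genes were all highest in E1, the deepest library, but by CPM Aars was highest in C1 (459.5, against 365.2 in E1). Each of these genes had at most 94 counts in F7. Lars, for leucine, and Dars, for aspartate, had instead 3339 and 4444 counts in F7, their highest, and none in C12. Cars and Mars, for cysteine and methionine, were the least abundant cytosolic members per length, at 11.2 and 13.6 CPM per kb. Exons of Aars share 1326 bases with Exosc6 on the same strand, and Exosc6 is not among the genes counted. Reads from that stretch cannot be assigned to Aars alone, and their part in its counts was not tested.

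**Figure D2:**
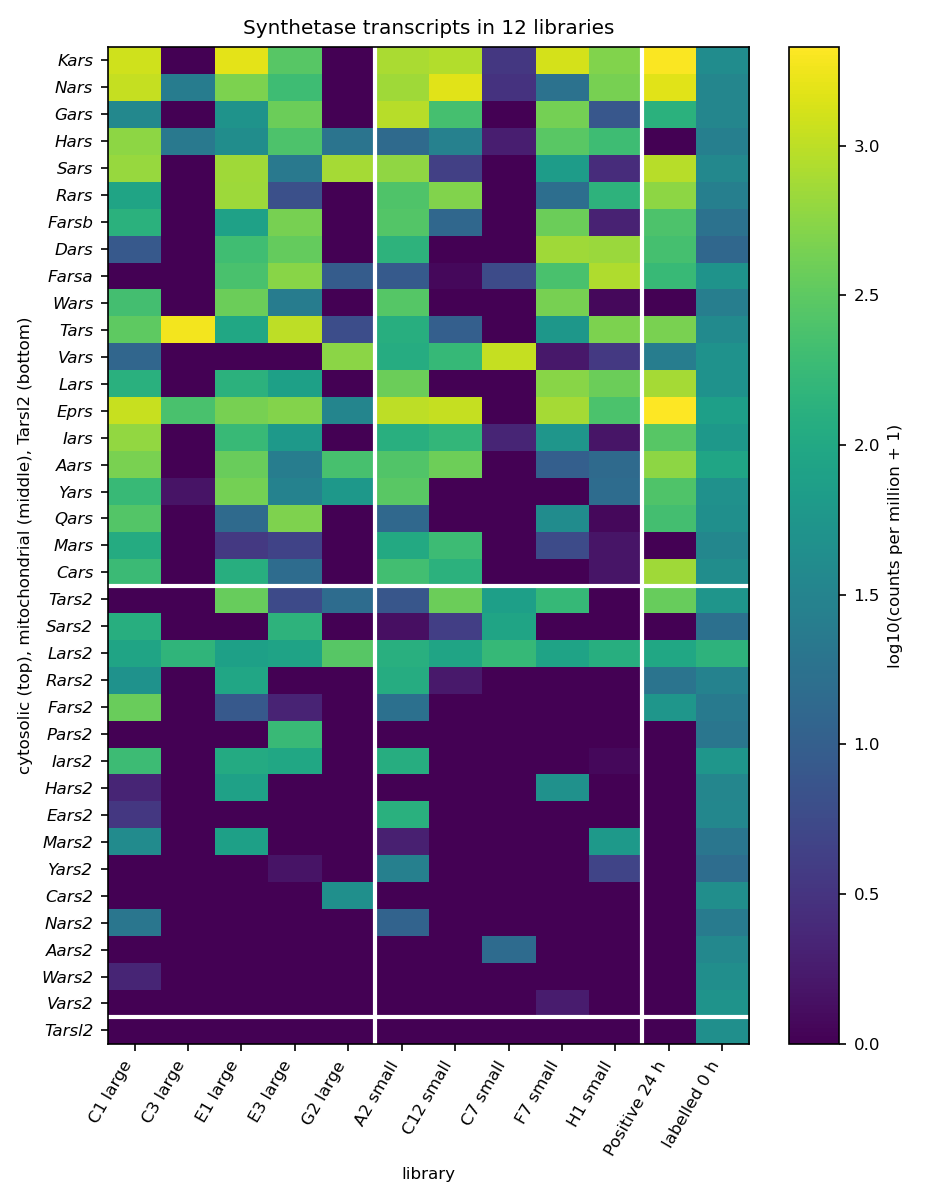
Levels of 37 members, as log10(CPM + 1), in the 5 large cells, the 5 small cells, Positive and the library labelled 0 h. Members run from high to low mean CPM per kb within each compartment. Cytosolic genes are seen in most cells, but in C3, G2 and C7 only 5, 8 and 6 of the 20 have a read. Mitochondrial genes are mostly empty apart from Lars2, and the library labelled 0 h is even over all members.

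Among mitochondrial members, Tars2, the threonine enzyme, had the highest mean level at 16.2 CPM per kb. It had 0, 0, 2281, 28 and 79 counts in the large cells C1, C3, E1, E3 and G2, and 35, 2187, 250, 1057 and 0 in the small cells A2, C12, C7, F7 and H1. Sars2, for serine, had 11.9 CPM per kb and Rars2, for arginine, had 10.3. Rars2 counts were 200 in C1, 583 in E1 and 0 in C3, E3 and G2, against 599 in A2, 4 in C12 and 0 in C7, F7 and H1. Tars2 was read in 7 of the 10 cells, Sars2 in 5 and Rars2 in 4, and each had cells of both sizes without a read.

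Lars2, the mitochondrial leucine enzyme, behaved differently from the other mitochondrial members. It had 348, 625, 484, 512 and 1639 counts in the large cells C1, C3, E1, E3 and G2, and 657, 509, 557, 528 and 670 in the small cells A2, C12, C7, F7 and H1. Its level thus lay between 76.7 and 293 CPM in all 10 cells, including C3, G2 and C7, where few other members were seen. Of 2411 genes with a mean CPM within 2-fold of that of Lars2, 276 (11.4%) also had a read in all 10 cells, and 80, Lars2 included, had a coefficient of variation over the 9 cells no larger than its 55.2%. The mouse Lars2 transcript is known to contain a stretch that resembles ribosomal RNA, so the origin of these reads is uncertain, and this was not tested.

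The remaining mitochondrial members were sparse. Of 170 combinations of a mitochondrial gene and a cell, Lars2 included, 112 (65.9%) had no read and 33 (19.4%) had over 200. Lars2 had over 200 in every cell, so the other mitochondrial members were sparser than these shares. Of 200 combinations for the cytosolic genes, 51 (25.5%) had no read and 101 (50.5%) had over 200. Pars2, the proline enzyme, had 1080 counts in E3 and none in the other 9 cells, and Cars2, the cysteine enzyme, had 251 counts in G2 alone. Ears2, for glutamate, had 668 counts in A2 and 10 in C1, and Hars2 had 494 in E1, 292 in F7 and 5 in C1. Mars2, for methionine, had 159 counts in C1 and 487 in E1, against 346 in H1 and 5 in A2. None of these 3 genes was read in more than 4 of the 10 cells. Nars2 was read in C1 (78 counts) and A2 (54 counts), and Yars2 in E3 (3 counts), A2 (143 counts) and H1 (21 counts). Aars2 was read in C7 only (45 counts), Vars2 in F7 only (5 counts) and Wars2 in C1 only (5 counts). Tarsl2 had no read in any cell. In both compartments counts of 1 to 20 were the rarest class, with 18 of the cytosolic and 12 of the mitochondrial combinations.

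To follow the study's comparison of sizes, each count was multiplied by the authors' spike-in factor for its library and 100 was added. Adjusted counts above 300 define a gene that is on. The factor was 1 for C1, 0.445 for E1, 0.397 for E3 and 0.0998 for G2, against 0.935 in A2 and 0.289 to 0.370 in the other small cells, so C1 and A2 weigh most in any mean of adjusted counts. Among the 38 members, 31 were on in 1 or more of the 9 cells (all 20 cytosolic and 11 of 17 mitochondrial), and none in all 9. Eprs and Kars were on in 7 cells, the most of any member, 3 of them large and 4 small. Of the 31 members 6 (19.4%), all mitochondrial, were on in a single cell, against 34.9% of the 6435 genes on in any of the cells.

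The number of members on varied as much within a size as between sizes. C1 had 20, E1 had 21, E3 had 14, G2 had 2 and the omitted C3 had 1, against 21 in A2, 11 in C12, 1 in C7, 11 in F7 and 9 in H1 (median 17 in large and 11 in small cells). The cells rich in members were also rich in other genes: 48.2, 38.2, 36.1 and 10.2% of the 6435 genes were on in C1, E1, E3 and G2, and 59.3, 26.0, 14.9, 33.2 and 26.2% in A2, C12, C7, F7 and H1. In G2 the members on were Sars and Vars, and in C7 it was Vars alone. The share of the 31 members on was above that of all genes in 7 of the 9 cells and below it in G2 (6.45%) and C7 (3.23%). Fewer transcripts in a cell and a poorer yield of cDNA cannot be told apart here.

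**Figure D3:**
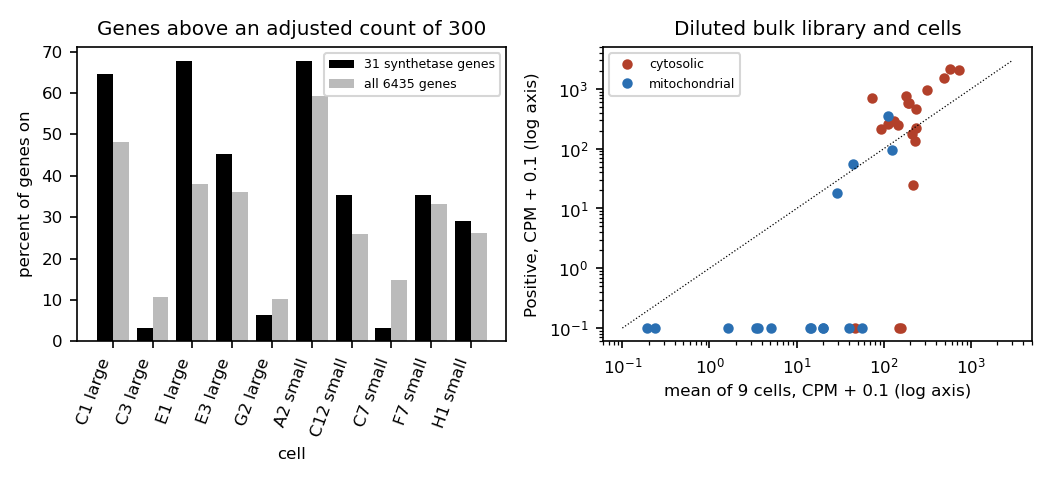
Left, percent of the 31 members and of all 6435 genes with an adjusted count above 300 in each cell. Right, CPM in Positive against the mean CPM of the 9 cells for cytosolic and mitochondrial members, with 0.1 added on log axes and a dotted line of equality. Members track the other genes from cell to cell, and points on the lower edge are members without a read in Positive.

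The score subtracts the share of small cells in which a gene was on from that of large cells. By it, 5 of the 31 members reached 0.5 and were called higher in large cells (16.1%), against 5.83% of all 6435 genes. They were Qars, Sars, Sars2, Iars2 and Lars2. A gene on in a single cell scores at most 0.25 and cannot be called. Such genes were 34.9% of the 6435 and 19.4% of the members, so the called shares are not on an equal footing. None of the members was called lower (score of -0.5 or below), against 1.88% of all genes. With 4 large and 5 small cells the rule is uneven and favours higher calls. Qars scored 0.5 from 2 large cells alone and was called. The myeloid gene Fcer1g scored -0.4 from 2 small cells alone and was not. The 5 higher and 0 lower calls therefore do not by themselves show a shift toward large cells. None of the members had its 4 large cells all above (0.295% of all genes) or all below (0.171%) its 5 small cells. The count of 5 depended on single cells: it was 0 without C1, 2 without E1, 1 without E3, 8 without A2, and 0 with C3 kept. With library totals in place of the spike-in factors the members called were Iars2 and Yars.

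Qars, which charges glutamine tRNA and belongs to the multi-synthetase complex, had the largest difference. Its counts in the large cells were 1110, 82, 2929 and 0 in the order C1, E1, E3 and G2, against 65 in A2, 250 in F7, 1 in H1 and 0 in C12 and C7 among small cells. C1 and E3 lay above every small cell, while E1 and G2 lay among them. The unscaled sums were 4121 counts in large cells (exact 95% Poisson interval 3996 to 4249) and 316 in small cells (282 to 353). These intervals cover counting error only, not PCR copies or the spread between cells, and C1 and E3 gave most of the 4121. The log2 ratio of mean adjusted counts was 2.37, with 1.88 to 2.73 when any 1 of the cells was left out. In C3, Qars had no read.

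Sars, the cytosolic serine enzyme, was on in 3 of 4 large cells and 1 of 5 small cells. It had 2612, 4487, 128 and 4308 counts in the large cells C1, E1, E3 and G2, against 3114, 19, 0, 427 and 9 in the small cells A2, C12, C7, F7 and H1. The high cells were C1, E1 and G2 of the large and A2 of the small. The log2 ratio was 0.94, and it was 3.28 without A2 and 0.37 without C1. Its mitochondrial counterpart Sars2 had 497 counts in C1, 848 in E3 and 0 in E1 and G2, against 291 in C7, 18 in C12, 2 in A2 and 0 in F7 and H1, with a log2 ratio of 1.38 (0.84 without C1). Both serine enzymes were thus called, each from partly different cells.

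Iars2, the mitochondrial isoleucine enzyme, had 770, 671, 576 and 0 counts in C1, E1, E3 and G2, against 609 in A2, 1 in H1 and 0 in C12, C7 and F7. C1, E1, E3 and A2 were alike, and the other 5 cells had at most 1 read. The log2 ratio was 0.99, with 0.37 without C1 and 2.08 without A2. Exons of Iars2 share 2034 bases with Rab3gap2 on the other strand, which had 2221, 579, 42 and 2 counts in C1, E1, E3 and G2, against 1118 in A2, 1735 in F7, 2996 in H1 and 0 in C12 and C7. Rab3gap2 was high in F7 and H1, where Iars2 had at most 1 read.

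The call of Lars2 rested on values close to the threshold of 300. Adjusted counts were 448, 315, 303 and 263 in C1, E1, E3 and G2, against 714 in A2, 253 in C12, 265 in C7, 295 in F7 and 294 in H1. E1 and E3 lay just above the threshold and F7 and H1 just below it. Its log2 ratio was -0.13, below 0 although its score was 0.55. The ratio was 0.17 with library totals and 0.27 without A2.

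**Figure D4:**
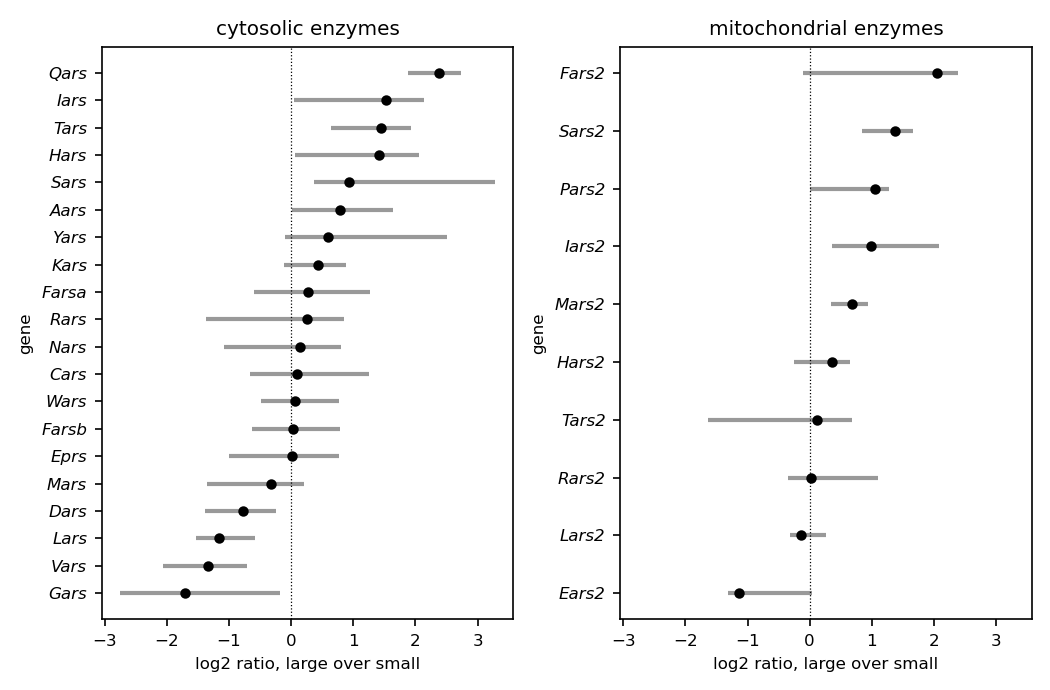
Log2 ratio of mean adjusted counts, large over small cells, for the 20 cytosolic members and 10 of the 11 mitochondrial members on in any of 9 cells (points), with the range when any 1 of the cells was left out (grey lines). Qars has the highest ratio (2.37) and Gars the lowest (-1.71). For many members the grey line crosses 0, and for others, Qars and Gars among them, it does not.

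Of the 31 members 23 (74.2%) had a log2 ratio above 0, against 50.7% of the 6435 genes. Of the 20 cytosolic members 15 had a log2 ratio above 0 and the median was 0.20, and of the 11 mitochondrial members 8 were above 0 and the median was 0.36, also with Pars2, which had no read in small cells, set at its bound of 3 counts over that group. The median of all 6435 genes was 0.02. Without A2 the medians were 0.83 for cytosolic members, 0.63 for mitochondrial members and 0.38 for all genes, and without C1 they were -0.078, 0.37 and -0.31. The median of all genes thus moved in the same direction as the cytosolic median when either cell was left out. The ratio of the median share of counts in large cells to that in small cells was 1.04 for cytosolic and 1.39 for mitochondrial members, and these were 0.894 and 1.08 without C1 and likewise without E1. Without Lars2 the median mitochondrial share was 0.0574% in large and 0.0383% in small cells, against 0.0655 and 0.0471% with it.

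After Qars, the largest ratios were those of Fars2, Gars and Iars. Fars2, the mitochondrial phenylalanine enzyme, had 1491, 48, 7 and 0 counts in C1, E1, E3 and G2, against 84 in A2 and 0 in the other small cells. Its ratio of 2.05 became -0.10 without C1, so a single cell carried it. Gars had a log2 ratio of -1.71, which was -0.17 without A2 and -2.75 without E3. Iars, the cytosolic isoleucine enzyme, had 2476, 1113, 372 and 0 counts in C1, E1, E3 and G2, against 661, 918, 4, 339 and 3 in A2, C12, C7, F7 and H1, and its ratio of 1.53 was 0.05 without C1. Of the genes with a TGATGNAA element, Aars, Iars, Tars and Yars thus had ratios of 0.79, 1.53, 1.45 and 0.60 and Gars had -1.71, and none of these 5 was called.

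Members nearest to being called lower were Gars and Vars, both with a score of -0.35. Gars was called lower when E3 or C7 was left out, Vars when G2 or F7 was, and both when H1 was. Vars, the valine enzyme, had 46 counts in C1, 0 in E1 and E3 and 3159 in G2, against 588, 981, 3570, 4 and 14 in A2, C12, C7, F7 and H1. It was high in G2 and C7, which held few other members, and made up 75.1% of all synthetase counts in C7. Its log2 ratio was -1.34 (-2.06 without G2 and -0.72 without C7). Lars and Dars, for leucine and aspartate, had ratios of -1.16 and -0.77, and both were high in F7 and H1.

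The multi-synthetase complex is an assembly of cytosolic enzymes held by 3 scaffold proteins. Its 8 enzyme genes (Dars, Eprs, Iars, Kars, Lars, Mars, Qars and Rars) were on in a median of 5 of the 9 cells and had a median log2 ratio of 0.13, against 4 cells and 0.21 for the other 12 cytosolic genes. In each of these sets 1 gene was called, Qars in the complex and Sars outside it. The scaffold genes Aimp1, Aimp2 and Eef1e1 had log2 ratios of 1.31, -0.22 and -1.17 and were not called. Synthetases also fall in 2 classes with unrelated folds. The 14 class I genes on in a cell had a median of 0.08 and the 16 class II genes 0.40, Eprs, which holds both classes, left out.

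Genes on either side of the synthetases in the path from tRNA to protein were read against the same background. None of the 14 RNA polymerase III genes that were on was called (median log2 ratio 0.73, 10 above 0). Of 14 genes on for tRNA maturation and export, Pop1, a subunit of the nuclease that trims tRNA precursors, was called higher and Rpp14, a subunit of the same enzyme, lower, with a median of 0.30. Pop1 had 595, 932, 740 and 1 counts in C1, E1, E3 and G2, against 1097, 0, 0, 497 and 1 in A2, C12, C7, F7 and H1. Rpp14 had 0, 2, 0 and 0 counts in C1, E1, E3 and G2, against 310, 1159, 0, 1092 and 116 in A2, C12, C7, F7 and H1.

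Of the 4 mitochondrial elongation factors, Tufm, which brings charged tRNA to the mitochondrial ribosome, was called higher, with 562, 516, 1451 and 3 counts in C1, E1, E3 and G2 and 444, 0, 0, 0 and 416 in A2, C12, C7, F7 and H1. Its log2 ratio was 1.09. The 5 cytosolic elongation factors (median -0.15), the 4 helpers of mitochondrial tRNA charging (-0.22) and the 2 editing genes that were on (-0.08) had no gene called. The cytosolic elongation factors took 1.11 to 1.68% of counts in the 4 large cells and 1.07 to 1.78% in the small cells, a range far narrower than that of the synthetases. Of the 12 genes on among those of the integrated stress response and ATF4 targets, none was called and the median was -0.11. Atf4 itself had 1471, 1700, 2077 and 1285 counts in C1, E1, E3 and G2, against 3159, 2946, 0, 381 and 1554 in A2, C12, C7, F7 and H1, a log2 ratio of -0.14.

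Positive, the bulk cDNA of cells stimulated for 24 h, had a larger share of cytosolic synthetase counts than any single cell, 1.13% (1.11 to 1.15%). Its mitochondrial share, 0.0529% (0.0495 to 0.0564%), lay within the range of the cells. Eprs and Kars led with 2136 and 2047 CPM, followed by Nars with 1535 and Sars with 950. Across the 38 members, CPM in Positive and the mean CPM of the 9 cells had a Spearman rho of 0.79 and a Pearson r of 0.91, a description over genes that share libraries and length. In 7 members, Aars, Cars, Eprs, Kars, Lars, Nars and Sars, the level in Positive was above that of each of the 10 cells (8.21% of the 6435 genes).

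Of 38 members 17 had no read in Positive, among them 3 cytosolic genes, Hars, Mars and Wars. These 3 and Iars2 were on in 3 or more of the 9 cells, and the other 13 in fewer. Wars, for tryptophan, had 875, 2439, 142 and 0 counts in C1, E1, E3 and G2 and 1450, 0, 0, 2764 and 1 in A2, C12, C7, F7 and H1, a mean of 150.2 CPM. For Hars the mean was 157.7 CPM, whereas 3 counts in Positive would be 1.72 CPM, so the mean of the cells was at least 91.5 times that limit for Hars and at least 87.2 times for Wars. Of the 31 members on in a cell 10 (32.3%) had no read in Positive, against 45.5% of all genes on. At the depth of Positive, the 10 cells would hold reads of 5.67 (C3) to 30.4 (A2) members on average, and Positive had 21. The bulk cDNA had been diluted, and the part of the dilution in these absences was not tested.

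The library labelled 0 h went against its label as a bulk sample of B cells. Reads fell in 33107 of 37991 genes, Gm10800 took 27.0% of counts, and Actb had 22 counts and Cd79a 7, about as many as the T cell gene Cd3e (15) and the myeloid gene Lyz2 (7). All 38 members had reads, from 10 for Dars to 118 for Lars2, with a median of 33 over cytosolic and 28 over mitochondrial genes. The cytosolic genes thus lacked the excess over the mitochondrial genes that was seen in each cell and in Positive, and the counts followed exon length (Spearman rho 0.63) more than the mean CPM of the 9 cells (0.15). The cause was not tested. Values against this library are given only as a description of these 2 libraries.

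With counts below 3 set to 3 in each library, 18 of 38 members were at least 2-fold higher in CPM in Positive than in the library labelled 0 h (47.4%, against 16.4% of 18195 genes with at least 10 counts in either). They comprised 16 cytosolic genes together with Fars2 and Tars2. The largest ratios were those of Kars, with 3564 counts in Positive and 34 in the library labelled 0 h (49.7-fold), and Nars, with 2673 and 27 (46.9-fold). Lower by at least 2-fold were 17 members (44.7%, against 79.6% of all genes), each of them without a read in Positive. Iars2 had 0 counts in Positive and 46 in the library labelled 0 h, the lowest ratio of the 38 at no more than 0.0309. Vars, Lars2 and Rars2 passed neither limit.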

How the data were processed

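Per the methods and the submitters' notes, the authors aligned reads with STAR (version not given in the sources used here) against mouse build m37 and deposited whole-number counts per gene, with no correction for PCR copies. They also deposited a factor per library, the ratio that scales its counts to the spike-ins. A further 26 columns of adjusted per-sample values and the authors' scores and enrichment tables were not used. Symbols came from the GENCODE M21 names (32919 of 37991 identifiers) and exon lengths from its annotation.

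Adjusted counts, the score (threshold 0.5, on above 300) and C3's omission followed the methods. Ratios compare mean adjusted counts, and the constant of 100 draws them toward 0. The 38 members, the lists and the rule for named genes were chosen with earlier results of these data known. That rule took members called by score, the 4 most abundant per compartment, the 4 largest log2 ratios, the 3 largest differences between Positive and the library labelled 0 h, and called genes of the lists. Other members were named to account for the rest, except 1 that is counted but whose own values are not reported here. Alternatives were thresholds, constants, scalings, C3 kept and each cell left out. The score was tested on simulated data. These held counting error only around 1 shared profile, so the test does not show how well calls hold in these cells. Computations ran in Python 3.11.15 with scipy 1.17.1, numpy 2.4.6, pandas 2.3.3 and, for plots, matplotlib 3.10.9.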

Additional observations from a re-analysis of the deposited data

Results flagged for a closer look

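In 34 sets of values from the large or the small cells (shares, numbers of members and log2 adjusted counts of 13 named members), 8 held 1 cell that stood far from the others. Chance gives such a cell in about 1 of 20 sets where values vary freely. That rate need not hold here, since the named members were chosen with results of these data known. In 7 of the 8, all but Lars2, at least 1 of the other cells had no read. Such cells sat at the added constant (6.64 on the log2 scale), as did all the other small cells for Fars2. In 5 of the 8 the cell far from the others was the small cell A2, which has the largest factor of the small cells. Its log2 adjusted counts were 7.48 for Fars2, 9.39 for Iars2, 9.48 for Lars2, 9.37 for Rars2 and 11.6 for Sars. The other small cells lay between 6.64 and 8.01 for Sars and between 7.98 and 8.21 for Lars2. Before scaling by the factor, A2 did not stand apart for Lars2, with 657 counts against 670 in H1. The remaining sets were Sars2 in the small cell C7 (7.54), Fars2 in the large cell C1 (10.6) and Tars2 in the large cell E1 (10.1).

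The large cell C3, outside the comparison of sizes, had 7642 counts of Tars, the threonine enzyme, more than any other cell. It also had 981 counts of Eprs, 625 of Lars2, 100 of Nars and 88 of Hars. Negative had 0 for each, but with 190 counts in all it is too shallow to measure a background for C3.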

How the results depend on the processing

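Members called higher numbered 3 at a threshold of 200, 2 at 500, 2 with library totals, 2 with unscaled counts plus 100 and 0 with C3 kept. They numbered 0 to 8 when 1 of the cells was left out, and members called lower 0 to 2. The cytosolic median log2 ratio was 0.23 with a constant of 10, 0.10 with 1000, 0.13 with library totals and -0.073 with C3 kept, and -0.078 to 0.83 with 1 of the cells left out. The mitochondrial median was 1.07, 0.048, 0.47 and 0.25 under the same alternatives, 0.088 over all 17 members, and -0.11 to 0.63 with 1 of the cells left out. The ratio of cytosolic shares was 1.12 for means, 1.11 without Kars, 0.894 with C3 kept, and 0.894 to 1.19 with 1 of the cells left out. That of mitochondrial shares was 1.62 for means, 1.77 without Tars2, 1.08 with C3 kept, and 1.08 to 1.70 with 1 of the cells left out. Of members lower in Positive than in the library labelled 0 h, 6 had at least 30 counts, since fewer genes were tested. The log2 ratio of Lars2 was 0.17 with library totals, 0.27 without A2 and -0.31 to 0.27 with any 1 of the cells left out. The cause was not tested elsewhere. Each size group is 1 sample of few cells, and a count of 0 limits only what the amplified cDNA held. No paired analysis was possible because the cells of the 2 sizes carry no shared number in the labels.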
